A study of Homo sapiens with 6 samples.

Results

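Glycolytic enzyme genes were described in MG63 cells, an established human osteosarcoma line, in which FTO was stably knocked down (shFTO) and in control cells (shNC), with 3 biological replicates of each. FTO encodes a demethylase of N6-methyladenosine (m6A), a methyl mark on messenger RNA, and the design asked which transcripts and pathways depend on it. The genes were PKM, GAPDH, ENO1, ALDOA, LDHA, LDHB, PGK1, TPI1, PGAM1 and HK2, taken by gene symbol, and all 10 were found among the 61806 genes listed. Poly(A) RNA of each culture was sequenced in bulk, so fewer cells making a transcript and less of it per cell cannot be told apart.

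Glycolysis turns glucose into pyruvate in the cytosol and yields ATP and NADH without oxygen. Hexokinase traps glucose in the cell, aldolase and triosephosphate isomerase make the 3-carbon sugars, and the enzymes from glyceraldehyde-3-phosphate dehydrogenase to pyruvate kinase harvest the energy. Lactate dehydrogenase then turns pyruvate into lactate and restores NAD+. Tumour cells often run this pathway fast even when oxygen is at hand, and the hypoxia factor HIF-1 is a known activator of many of its genes.

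The values were FPKM, that is, reads scaled to exonic length and library total, and behind them whole reads could be recovered. The reads recovered from the table summed to 94083 to 106245 per library in shFTO and to 93629 to 100992 in shNC, and 7057 genes had a read in at least 1 library. Whether these are all the reads sequenced is not known here, so totals, zeros and limits refer to the table. The targeted gene FTO was listed at 0 in all 6 libraries. A count of 0 allows up to 3 reads, at which FTO would have stood at 1.32 to 1.49 FPKM in shFTO and at 1.39 to 1.5 FPKM in shNC, so the group labels could not be checked on it. Of 16 mesenchymal and bone lineage genes, 11 had reads, with TWIST1, SPARC and VIM highest in mean FPKM, while ALPL, BGLAP, IBSP, SPP1 and SP7 were listed at 0. Blood, muscle and adipocyte marker lists had no reads, and the endothelial and neural lists had 1 read each, in PECAM1 and TUBB3. The epithelial list had 7 reads in shFTO, 6 of KRT18 and 1 of KRT8, and 1 read in shNC, of KRT8, with EPCAM and CDH1 at 0 in every library.

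Sites of HIF-1 usually contain the core ACGTG, which was looked for on both strands in the 250 bases before each RefSeq start on GRCh38.p14. A CACGTG, the E-box that MYC and MAX bind, holds the core on both strands and was counted once. Of 15 windows of the 10 genes, 9 held the core, or 60%, against 18.5% of all 35116 windows and 23.4% of the 5527 windows of genes tested here. Of these 9, ALDOA supplied 3, and some of its windows overlap. By gene, HK2, ALDOA, TPI1, GAPDH, PGK1 and LDHA held it in at least 1 window, and PGAM1, ENO1, PKM and LDHB did not. This is 6 of 10, beside 30.5% of the 3737 tested genes that had a window. The following 3 windows are shown because that of LDHA held the most sites of any single window, PGK1 is a textbook HIF-1 target, and PGAM1 was the gene whose groups came apart in reads. They lie at chr11:18394313-18394562 (LDHA), chrX:78103998-78104247 (PGK1) and chr10:97427568-97427817 (PGAM1), on the plus strand, and capitals mark the core.
LDHA: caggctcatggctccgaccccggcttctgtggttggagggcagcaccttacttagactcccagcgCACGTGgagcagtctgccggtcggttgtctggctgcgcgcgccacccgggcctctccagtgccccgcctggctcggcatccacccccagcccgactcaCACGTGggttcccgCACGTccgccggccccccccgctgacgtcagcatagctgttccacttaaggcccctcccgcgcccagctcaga
PGK1: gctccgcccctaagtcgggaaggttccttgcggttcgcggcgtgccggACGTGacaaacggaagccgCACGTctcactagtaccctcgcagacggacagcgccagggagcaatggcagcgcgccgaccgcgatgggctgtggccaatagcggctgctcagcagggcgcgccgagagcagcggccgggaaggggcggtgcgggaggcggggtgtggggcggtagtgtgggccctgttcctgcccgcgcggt
PGAM1: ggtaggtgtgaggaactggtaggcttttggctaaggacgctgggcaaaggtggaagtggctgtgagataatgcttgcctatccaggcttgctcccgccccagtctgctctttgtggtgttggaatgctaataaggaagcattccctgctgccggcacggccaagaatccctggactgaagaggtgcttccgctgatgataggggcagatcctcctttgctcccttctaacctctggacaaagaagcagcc
The LDHA window held 3 sites, of which 2 were CACGTG, the PGK1 window held 2, and the PGAM1 window held 0. Windows were set by RefSeq starts, and most lie inside the gene as listed with the FPKM values. Among these are the windows of PGAM1, ENO1, PKM and LDHB, the genes without the core, and that of PGK1. PGAM1 is listed from 97426191, before its window, and GAPDH from 6534512, with its window at 6535014-6535263. For such genes the bases just before the listed gene start were not searched, so a count of 0 refers to the window alone. Presence of these letters is no measure of binding.

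The 10 genes had 386 reads in all, or 0.0651% of the 592760 reads of the 6 libraries. PKM, GAPDH and ENO1 held 306 of them, or 79.3%, and the other 7 genes shared 80 reads. PKM and GAPDH were the members that averaged 10 or more reads a library. PKM, GAPDH, ENO1, LDHA and PGK1 were above 0 in all 6 libraries, and HK2, ALDOA, TPI1, PGAM1 and LDHB were at 0 in at least 3.

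By level per exonic length, averaged over the 6 libraries, GAPDH stood first at 61.5 ± 16 FPKM, above 95.3% of the genes with a read. PKM followed at 31.9 ± 7.45 FPKM and ENO1 at 18.2 ± 7.32 FPKM (SD, n = 6). GAPDH was above PKM, PKM above ENO1 and ENO1 above LDHA in 6 of 6 libraries, although the ranges of each such pair overlapped. LDHA, at 8.44 ± 3.57 FPKM, and PGK1, at 8.13 ± 3.59 FPKM, did not differ beyond their spread, with LDHA higher in 2 libraries and PGK1 in 4. Below them came PGAM1 at 4.58 FPKM, TPI1 at 3.88, LDHB at 2.38, ALDOA at 1.7 and HK2 at 0.845 FPKM, each with an SD above its mean. The order of these 5 therefore rests on single reads. In shFTO libraries alone the 4th place went to PGAM1, and in shNC libraries to PGK1, while GAPDH, PKM and ENO1 held the same 3 places in both. The exonic length listed counts every annotated exon, 8572 bases for PKM and 2396 for GAPDH, so an FPKM can understate a transcript that uses few of them.

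**Figure D1:**
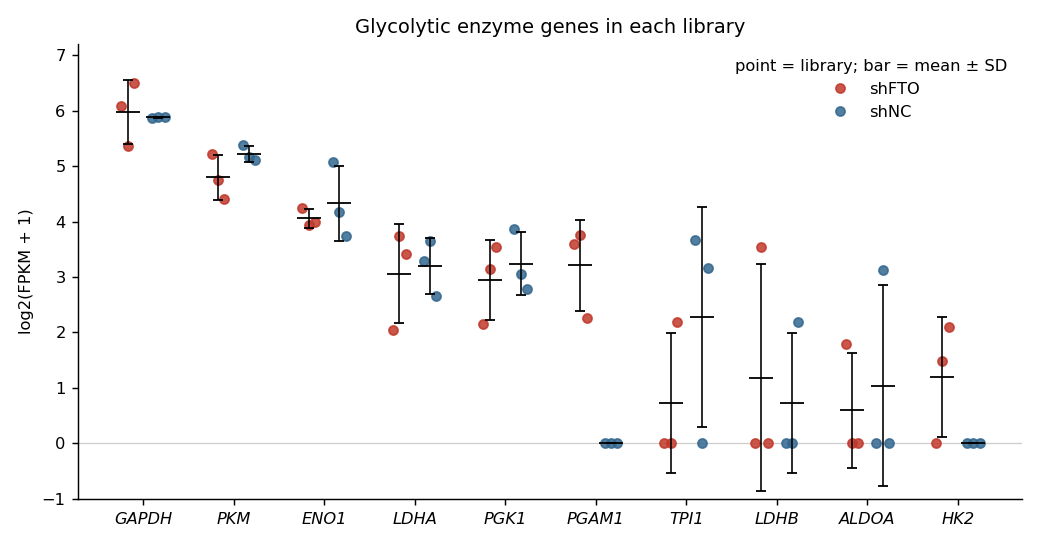
Level of each gene as log2(FPKM + 1) in each library (points), with the mean and SD over the 3 libraries of a group on the same scale (bars), shFTO left of shNC and genes ordered by mean FPKM. GAPDH, PKM and ENO1 stand above the rest in both groups, PGAM1 is above 0 in 3 shFTO libraries and at 0 in 3 shNC libraries, and points at 0 are libraries with no read.

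Across the pathway, totals of glycolytic reads overlapped between shFTO and shNC libraries, and the test called 0 of the 10 genes higher or lower. The genes took 64, 58.5 and 61.9 of 100000 reads in shFTO replicates 1, 2 and 3, against 81.6, 66.3 and 58.7 in shNC replicates 1, 2 and 3. The groups overlapped, and shNC replicate 1 was the highest library. Means were 61.4 ± 2.8 in shFTO and 68.9 ± 11.6 in shNC, a ratio of 0.892. Without PKM, which has the most reads, the means were 37.8 ± 5.95 in shFTO and 37.7 ± 8.42 in shNC, a ratio of 1.00. As summed FPKM, which weighs GAPDH more, the means were 140 ± 14.7 in shFTO and 143 ± 20 in shNC.

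The test was limma on log2(FPKM + 1) over the 4932 genes that reached a group mean of 1 FPKM, with Benjamini-Hochberg adjustment, and an adjusted p under 0.05 counted as a call. It called 0 of 10 members, where 0.0406% of all tested genes were called, namely the pseudogenes H3P47 and ENSAP2, both lower in shFTO. H3P47 had 3 reads in shFTO and 11 in shNC. ENSAP2 had 0 reads in shFTO and 5 in shNC, and was tested through shNC, its high group, alone. For H3P47 and ENSAP2 the limma-voom adjusted p was 0.793 and 0.643, so neither was called there. An unadjusted p under 0.05 was found for 1 member, PGAM1, against 3.85% of all tested genes, and limma-voom on recovered reads called 0 members and likewise had 1 under 0.05. Point estimates were above 0 for 4 members and below 0 for 6, with a median log2 fold change of -0.20, beside 0.00 over all tested genes. That median changed sign when single libraries were left out, to 0.08 without shFTO replicate 1, 0.06 without shNC replicate 1 and 0.08 without shNC replicate 2. All 10 members passed the filter on low values, but HK2 and PGAM1 did so through shFTO and ALDOA through shNC, so these 3 had to differ between the group means.

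**Figure D2:**
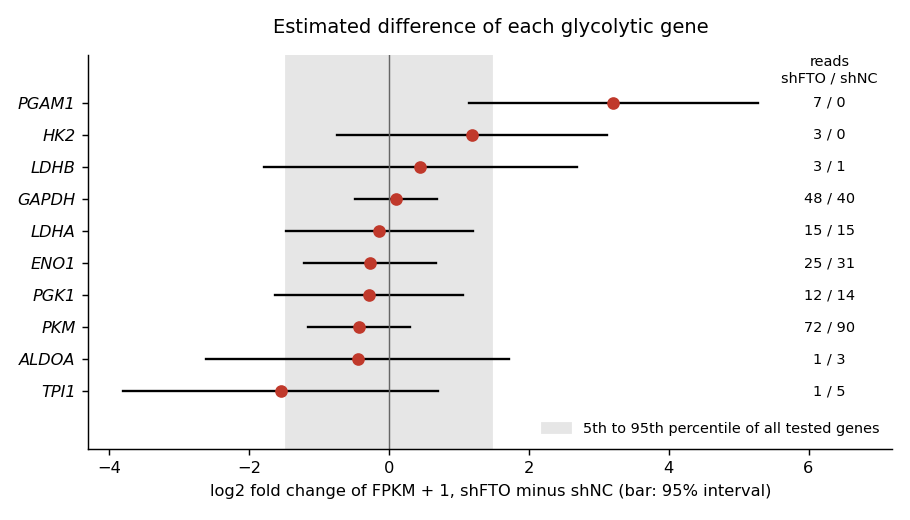
Log2 fold change of FPKM + 1, shFTO minus shNC, for each gene (points) with the 95% limma interval (lines), the reads of both groups at the right, and the 5th to 95th percentile of all 4932 tested genes shaded, from -1.48 to 1.47. The interval of PGAM1 lies above 0 but its adjusted p is 0.636, TPI1 and PGAM1 lie outside the shaded range, and PKM, GAPDH and ENO1, with the most reads, have the 3 narrowest intervals.

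Among the enzymes of the steps before GAPDH reads were few. HK2, which phosphorylates glucose and is the hexokinase often raised in tumours, had 0, 1 and 2 reads in shFTO replicates 1, 2 and 3, against 0 in each shNC library. This gave 0, 1.8 and 3.27 FPKM in shFTO and 0 in shNC. With 3 reads against 0, both groups were at or under the limit of a 0 count, and no fold is given. ALDOA, the aldolase that splits fructose-1,6-bisphosphate, had 1 read in shFTO, in replicate 1, and 3 in shNC, all in replicate 2. Its FPKM was 2.46 in that shFTO library and 7.76 in that shNC library. TPI1, which interconverts the triose phosphates made by aldolase, had 0, 0 and 1 reads in shFTO replicates 1, 2 and 3, against 3, 0 and 2 in shNC replicates 1, 2 and 3. In FPKM TPI1 averaged 1.19 ± 2.07 in shFTO and 6.56 ± 6 in shNC (SD, n = 3 each). The groups overlapped at 0, and the log2 fold change was -1.55 (SE 1.11, limma adjusted p = 0.772). It was -0.85 without shNC replicate 1 and -2.68 without shNC replicate 2.

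GAPDH and PGK1 carry out the paired steps that make NADH and the first ATP of the payoff phase. GAPDH, widely used as a reference gene, had 66.8, 39.9 and 88.8 FPKM in shFTO replicates 1, 2 and 3, against 57.5, 57.9 and 58 FPKM in shNC replicates 1, 2 and 3. The shFTO libraries lay on both sides of the shNC ones, which agreed closely. These values came from 17, 9 and 22 reads in shFTO and 13, 14 and 13 in shNC, so the shNC libraries differed by 1 read at most. The log2 fold change of GAPDH was 0.10 (SE 0.29, limma adjusted p = 0.936) and the 95% interval of its fold change ran from 0.714 to 1.61. Without shFTO replicate 3 the estimate was -0.16. PGK1, phosphoglycerate kinase, had 3.46, 7.82 and 10.7 FPKM in shFTO replicates 1, 2 and 3, against 13.7, 7.28 and 5.89 FPKM in shNC replicates 1, 2 and 3. The groups overlapped widely, with 12 reads in shFTO and 14 in shNC. Its log2 fold change was -0.29 (SE 0.66, limma adjusted p = 0.913), and it was 0.11 without shFTO replicate 1 and 0.03 without shNC replicate 1.

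PGAM1, the mutase that moves the phosphate of 3-phosphoglycerate, was the single member whose groups did not overlap. It had 11.1, 12.6 and 3.81 FPKM in shFTO replicates 1, 2 and 3, from 3, 3 and 1 reads, against 0 in all 3 shNC libraries. Of all tested genes, 2.9% had every shFTO library above every shNC library and 3.69% every one below, beside 1 of 10 and 0 of 10 members. PGAM1 was tested through shFTO, its high group, alone, so its group means had to differ, and nothing is read from this count. Against 3 reads over the shNC group, the limit of its 0 count, PGAM1 was at least 2.22-fold higher in shFTO with its 7 reads taken as exact. The exact 95% interval of the read ratio, which covers counting error only, had a lower bound of 1.37. In limma its log2 fold change was 3.21 (SE 1.02, unadjusted p = 0.00324, adjusted p = 0.636), and it was not called. The adjusted p lay between 0.211 and 0.79 over the alternatives, and the estimate between 2.93 and 3.68 with a library left out. An exact permutation of 3 against 3 cannot give a two-sided p under 0.1. The epithelial gene KRT18 also had reads in shFTO, 3, 0 and 3 in replicates 1, 2 and 3, and 0 in shNC. Over the 9 epithelial genes the summed reads were 4, 0 and 3 in shFTO replicates 1, 2 and 3, against 0, 0 and 1 in shNC replicates 1, 2 and 3, with EPCAM and CDH1 at 0 throughout, and their part in the PGAM1 values was not tested.

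ENO1 and PKM complete the payoff phase, and their estimates lay below 0 with overlapping groups. ENO1, the enolase that makes phosphoenolpyruvate, had 18, 14.3 and 14.8 FPKM in shFTO replicates 1, 2 and 3, against 32.5, 17.1 and 12.3 FPKM in shNC replicates 1, 2 and 3. The highest shNC library, replicate 1, stood apart from the other libraries of both groups. The log2 fold change of ENO1 was -0.27 (SE 0.47, limma adjusted p = 0.874), and it was 0.10 without shNC replicate 1. PKM, the pyruvate kinase whose M2 splice form is typical of tumour cells, had 36.2, 26 and 20.3 FPKM in shFTO replicates 1, 2 and 3, against 40.8, 34.6 and 33.6 FPKM in shNC replicates 1, 2 and 3. Of its shFTO libraries, replicates 2 and 3 were below every shNC library, and replicate 1 was within their range. PKM averaged 27.5 ± 8.07 FPKM in shFTO and 36.4 ± 3.88 FPKM in shNC (SD, n = 3 each), from 72 reads in shFTO and 90 in shNC. Its log2 fold change was -0.42 (SE 0.36, limma adjusted p = 0.772), and it stayed below 0 with any library left out, between -0.63 and -0.23. The read ratio of PKM was 0.761 (exact 95% interval 0.55 to 1.05), so a 2-fold fall was outside counting error, while the limma interval of the fold change, 0.45 to 1.24, allowed it. The table gives genes, not splice forms, so PKM1 and PKM2 were not separated.

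Lactate dehydrogenase is a tetramer of LDHA and LDHB chains, LDHA being the form of anaerobic muscle and many tumours and LDHB that of heart. LDHA had 3.12, 12.3 and 9.6 FPKM in shFTO replicates 1, 2 and 3, against 8.78, 11.5 and 5.31 FPKM in shNC replicates 1, 2 and 3. It had 15 reads in each group, the shFTO libraries spread on both sides of the shNC ones, and the log2 fold change was -0.13 (SE 0.66, limma adjusted p = 0.957). The estimate was 0.37 without shFTO replicate 1 and 0.09 without shNC replicate 2. LDHB had 3 reads in shFTO, all in replicate 2 (10.7 FPKM), and 1 in shNC, in replicate 3 (3.58 FPKM). Its log2 fold change of 0.45 (SE 1.11) became -0.73 without shFTO replicate 2. Per exonic length LDHA stood at 8.35 ± 4.73 FPKM in shFTO and 8.52 ± 3.09 in shNC, and LDHB at 3.56 ± 6.17 in shFTO and 1.19 ± 2.07 in shNC.

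**Figure D3:**
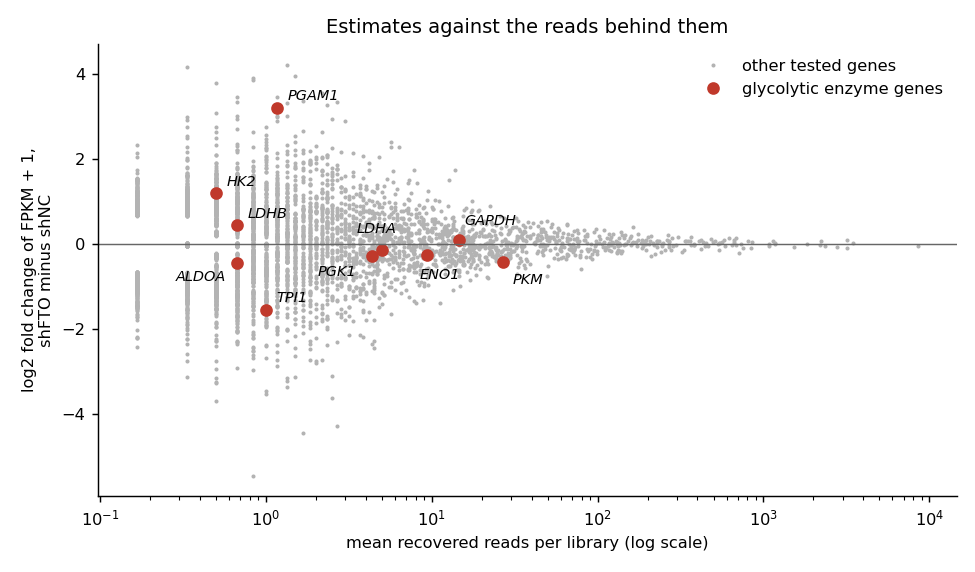
Log2 fold change of FPKM + 1, shFTO minus shNC, of all 4932 tested genes (grey) and of the 10 glycolytic enzyme genes (red) against the mean recovered reads per library on a log axis. Grey estimates spread widely at few reads and close in on 0 at many, and PGAM1, HK2, LDHB, ALDOA and TPI1 lie in the wide part.

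Spread between libraries of a group was close to counting error for the members with most reads. The within-group chi-square per degree of freedom, which is 1 when reads vary by counting alone, was 1.23 for PKM, 1.07 for GAPDH, 1.41 for ENO1, 1.17 for LDHA and 1.01 for PGK1. Over the 705 genes that averaged 10 or more reads a library its median was 1.63. ENO1, LDHA and PGK1 averaged fewer reads and are not in that set, so this median is no like measure for them. Each member's value rests on 3 libraries per group and is loosely known. The 105 listed pseudogenes named after these genes, 65 of them for GAPDH and 13 for PGAM1, had 0 reads. How reads that match several copies were counted is not known here, so the values of members with such copies are uncertain. The 12 genes overlapping 7 of the members on either strand had 0 reads too.

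In the rest of the pathway and its branches, 8 lists held 113 genes, of which 60 had no read, 42 were tested and 4 averaged 10 or more reads a library. Of the 42 tested, 0 were called higher and 0 were called lower. Estimates were above 0 for 21 and below 0 for 21, with a median log2 fold change of -0.08, and 2 of 42 had an unadjusted p under 0.05, beside 3.85% of all tested genes; of these 0.0406% were called. Groups did not overlap for ADPGK, higher, and for PRPS2, PFKFB2 and EGLN1, lower, which is 1 of 42 higher and 3 of 42 lower, beside 2.9% and 3.69% of all tested genes. All 4 passed the filter on low values through the group where they are high, so they had to differ between the group means, and nothing is read from this count. For PFKFB2, at 0.95 FPKM in 1 shFTO library and 0.97 to 1.05 in shNC, single reads scaled by library totals make the separation. EGLN1, an oxygen-sensing prolyl hydroxylase named here after its values were seen, had 0 reads in shFTO and 4 in shNC.

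Among 23 genes of other isozymes, 6 had reads and 5 were tested. ADPGK, a glucokinase that uses ADP, had 6.27, 5.31 and 4.83 FPKM in shFTO replicates 1, 2 and 3, against 0, 0 and 1.78 FPKM in shNC replicates 1, 2 and 3. These came from 10 reads in shFTO and 1 in shNC, a read ratio of 9.51 (exact 95% interval 1.35 to 413, counting error only) in a gene that was tested through its high group alone. Its log2 fold change was 2.196 (SE 1.02, limma adjusted p = 0.772). HK1, the hexokinase of most tissues, had 5 reads in shFTO and 4 in shNC, and GPI, which makes fructose-6-phosphate, had 3 in shFTO and 8 in shNC. The muscle forms PFKM and ENO3, the brain form ALDOC and the testis form LDHC were listed at 0. Flux regulators had 2 reads in shFTO and 4 in shNC over 10 genes, PFKFB2, which sets fructose-2,6-bisphosphate, having 1 read in shFTO and 3 in shNC. PFKFB3, of the same family, had 1 read, in shFTO, and PGM2L1, a phosphoglucomutase relative, had 1 read, in shNC.

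Transport of glucose and lactate had 14 reads in shFTO and 13 in shNC over 15 genes. BSG, the chaperone of lactate transporters, had 4.56 ± 2.53 FPKM in shFTO and 4.78 ± 6.43 in shNC. SLC2A1, the main glucose transporter of proliferating cells, had 0 reads in shFTO and 4 in shNC, and EMB, another partner of lactate transporters, had 0 in shFTO and 2 in shNC. At pyruvate entry into mitochondria CS, citrate synthase, had 11 reads in shFTO and 4 in shNC, PDP1, which activates pyruvate dehydrogenase, had 5 in shFTO and 10 in shNC, and DLD, a subunit of that complex, had 2 in shFTO and 3 in shNC. Neither list had a called gene.

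The pentose phosphate list held PRPS1 and PRPS2, which make phosphoribosyl pyrophosphate, the ribose donor of nucleotide synthesis. PRPS2 was at 0 in all 3 shFTO libraries, against 19.2, 7.18 and 3.87 FPKM in shNC replicates 1, 2 and 3. With 0 against 8 reads it was at least 2.8-fold lower in shFTO, if the 8 is exact and 3 reads are the group limit. The exact interval of its read ratio, shFTO over shNC, had an upper bound of 0.557. This interval covers counting error only and allowed a fall smaller than 2.8-fold. The log2 fold change of PRPS2 was -3.22 (SE 1.02, limma adjusted p = 0.636), and it was not called. PRPS2 was tested through shNC, its high group, alone. PRPS1 had 11.1, 9.41 and 2.85 FPKM in shFTO replicates 1, 2 and 3, against 0, 8.76 and 0 FPKM in shNC replicates 1, 2 and 3. It overlapped between groups, with 8 reads in shFTO and 3 in shNC and a log2 fold change of 1.88 (SE 1.01, limma adjusted p = 0.772). PGD, which makes NADPH in this pathway, had 5 reads in shFTO and 9 in shNC. In the serine, glycerol and hexosamine branches UAP1, which makes UDP-N-acetylglucosamine, had 14 reads in each group. SHMT2, the mitochondrial serine hydroxymethyltransferase, had 5 reads in shFTO and 9 in shNC, and PSAT1, of serine synthesis, had 1 in shFTO and 4 in shNC. Of 7 gluconeogenesis genes, G6PC3 had 1 read, in shFTO, and the other 6 had none.

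Transcription factors and oxygen sensors had 302 reads in shFTO and 295 in shNC over 16 genes, 12 of them with reads. HIF1A, the oxygen-regulated subunit of HIF-1, had 20.1, 16.5 and 39.4 FPKM in shFTO replicates 1, 2 and 3, against 37, 50 and 29 FPKM in shNC replicates 1, 2 and 3. Its groups overlapped through shFTO replicate 3, and the log2 fold change was -0.65 (SE 0.38, limma adjusted p = 0.772). From 40 reads in shFTO and 58 in shNC the read ratio was 0.656. Its exact 95% interval, 0.427 to 0.998, covers counting error only, and its within-group chi-square per degree of freedom was 2.27. MAX, the partner of MYC, had 70.4 ± 2.34 FPKM in shFTO and 61.3 ± 16 in shNC, and SP1, a general activator of GC-rich promoters, had 28.9 ± 4.01 FPKM in shFTO and 28.3 ± 3.4 in shNC (SD, n = 3 each). MYC itself had 2 reads in shFTO and 0 in shNC.

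**Figure D4:**
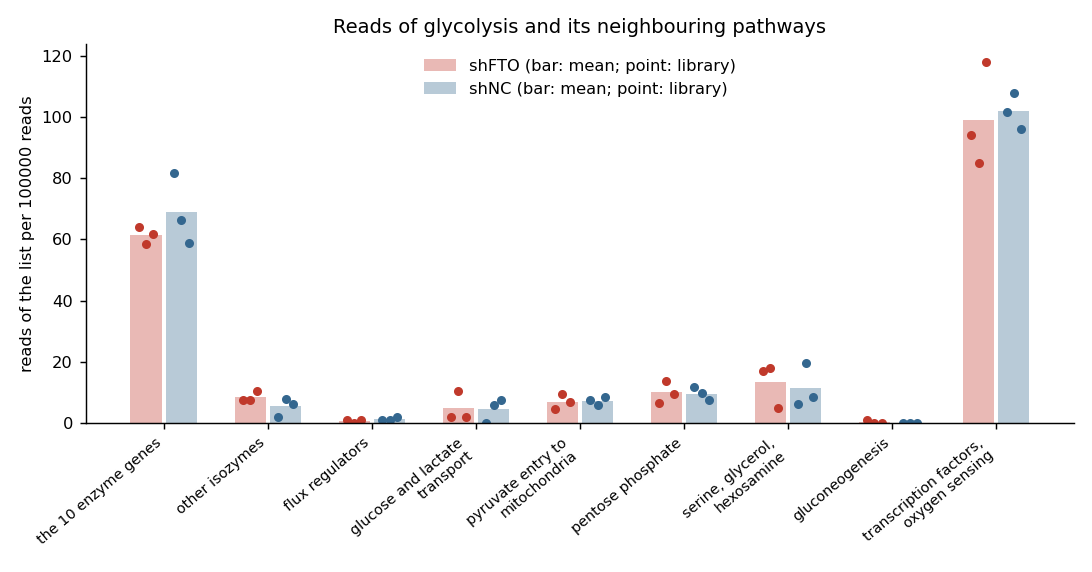
Reads per 100000 reads in each library (points) and their group mean (bars) for the 10 enzyme genes and for 8 lists of the pathway, its branches and its regulators, shFTO left of shNC. Groups overlap in each list drawn except the flux regulators, with 0 to 0.967 in shFTO and 0.99 to 2.14 in shNC, a gap that library totals make, as single libraries of both groups hold 1 read; the 10 enzyme genes average 61.4 in shFTO and 68.9 in shNC, and the transcription factors and oxygen sensors 99 in shFTO and 102 in shNC.

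The summed FPKM of the 10 genes was 141, 125 and 155 in shFTO replicates 1, 2 and 3, against 165, 136 and 127 in shNC replicates 1, 2 and 3. Among 703 other genes averaging 10 or more reads a library, those most like it over the 6 libraries were UBE2K, a ubiquitin-conjugating enzyme gene (Pearson r = 0.95, Spearman rho = 0.943), the gene ENSG00000253899 (r = 0.925, rho = 0.943) and KLF9, a transcription factor gene (r = 0.92, rho = 0.829). These were the highest of many values over the same 6 libraries, 28 of the 703 reaching at least 0.8, and all of them share each library's total, so they are given as a description.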

How the data were processed

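Poly(A) RNA of 3 shFTO and 3 shNC cultures of MG63 was sequenced on a strand-specific protocol, per the labels. DESeq2 1.50.2, StringTie 1.3.3b, HTSeq 0.6.1, HISAT2 2.2.1 and FastQC 0.10.1, with the build GRCh38, are named per the submitters' processing notes. The sources used here do not give their roles or the strand setting of counting. The authors deposited FPKM per gene with exonic length, position and symbol. FPKM depends on the library total, so very abundant genes lower all others.

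A library total between 20000 and 200000 was sought at which every FPKM times length was whole within 0.05 read and the reads summed to that total; this held for 100% of values in every library. A count of 0 was given a limit of 3 reads. Intervals and limits cover counting error only, as reads without molecular identifiers need not be separate molecules.

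limma 3.58.1 (trend and robust moderation, R 4.3.3) was fitted to log2(FPKM + 1) of the whole table, with group as the single term and 3 libraries per group, for genes that reached a group mean of 1 FPKM. Fold changes on this scale understate those of low genes, and those of genes with libraries at 0 depend on the pseudocount. Read ratios used exact conditional binomial intervals at 95% (SciPy 1.17.1, Python 3.11.15). The fit was tested on simulated data with 200 changed genes, of which it called few that had few reads. Simulated libraries were set to vary less than the real ones. In the real libraries the within-group chi-square per degree of freedom averaged 1.95 over 705 genes. Within groups, library pairs differed by more than counting error (chi-square per degree of freedom 1.78 to 2.08), so none was counted as a repeat.

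The members and lists were chosen with earlier results of these data known. Named genes were all members, the 3 genes with the highest mean FPKM in each other list, and the 3 most like the members' summed FPKM; EGLN1, MYC, H3P47, ENSAP2 and genes listed at 0 were named after their values were seen. Promoter windows came from RefSeq tables on GRCh38.p14, in which all 10 members matched. Alternatives were a pseudocount of 0.1, no filter, at least 10 reads per library, limma-voom, median-of-ratios scaling, a replicate block and each library left out.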

Additional observations from a re-analysis of the deposited data

How the results depend on the processing

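Under all alternatives run, 0 of the glycolytic genes and 0 of the pathway genes that could be tested there were called; with at least 10 reads per library these were 2 and 4 genes. Over all genes, 2 calls were made as reported, 7 with a pseudocount of 0.1, 9 without a filter and 5 in limma-voom. With at least 10 reads per library 705 genes were tested and 0 called, and 31 of the 705 had an unadjusted limma p under 0.05. The count of calls lay between 2 and 9 with a library left out, at 8 without shFTO replicate 1, 9 without shNC replicate 2 and 7 without shNC replicate 3. With the replicate number as a block it was 17, but same-numbered libraries did not deviate together (correlations of -0.0029, 0.0392 and -0.0116 over 705 genes), so the numbers were not taken as a pairing. The causes were not tested.

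Of 110 member estimates under alternatives, 103 kept the reported direction. With a library left out, ENO1 ran from -0.57 to 0.10, GAPDH from -0.16 to 0.41, LDHA from -0.47 to 0.37, LDHB from -0.73 to 1.18 and PGK1 from -0.59 to 0.11, while PKM, TPI1, ALDOA, PGAM1 and HK2 kept their sign where they could be tested. The ratio of summed member reads lay between 0.831 and 0.982 with a library left out. With a pseudocount of 0.1 the estimate of PGAM1 was 6.36. Depth limits these values: with at least 10 reads per library, PKM and GAPDH were the members that could be tested.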
